A study of Mus musculus with 16 samples.

Results

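The genes described here encode the proteins of the mitochondrial ribosome, and what was measured is how open the chromatin is at their promoters. Members were the ATAC-seq peaks of the deposited table that lay at most 1000 bp from a transcription start site and whose first gene name began with Mrpl or Mrps followed by a digit, pseudogenes left out. There were 66 such peaks at 56 genes, among 70150 peaks in all and 18884 within 1000 bp of any start (called promoter peaks below). Membership used names and distances only, so no measured value chose a member. All 66 peaks passed the filter on low counts, with which 69692 peaks and 18836 promoter peaks were tested.

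The mitochondrial ribosome, or mitoribosome, sits in the mitochondrial matrix and translates the few messages of mitochondrial DNA, all of them for membrane subunits of oxidative phosphorylation. Its RNAs come from mitochondrial DNA, but every one of its proteins is encoded in the nucleus, made in the cytoplasm and imported, so that many nuclear promoters scattered over the chromosomes supply one machine. Many of the proteins descend from bacterial ribosomal proteins and others were added in the mitochondrial lineage. In mammals, promoters of nuclear genes for mitochondrial proteins are known for sites of NRF1, of GABP, an ETS-family factor, and of YY1.

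ATAC-seq, in which the transposase Tn5 cuts and tags open DNA, was run on 16 libraries of the E14 mouse embryonic stem (ES) cell line. The 4 genotypes, with 4 libraries each, were WT, the degron lines AID-Zzz3 and AID-Yeats2, and Supt7l KO. ZZZ3 and YEATS2 are subunits of ATAC, and SUPT7L is a core subunit of SAGA, both complexes being histone acetyltransferase coactivators of transcription. In the AID lines the subunit carries an auxin-inducible degron, a tag that lets auxin trigger destruction of the protein. All libraries, WT included, came from cells given auxin for 24 h. Cultures were feeder-free on gelatine, and their serum medium carried LIF at 1500 U/ml together with the inhibitors PD0325901 (1 µM) and CHIR99021 (3 µM). Each library was made from 100000 cells with 25 nM Tn5 and 14 PCR cycles. The series text mentions independent clones and different days but does not tie all libraries to them, so libraries of a line may share a clone, and p-values measure the spread between libraries only. Degradation of the AID proteins cannot be read from these files.

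Counts in peaks ranged from 2492045 to 5540559 per library. A peak at the shared start of Supt7l and Slc4a1ap held 46 to 84 counts in the Supt7l KO libraries and 63 to 83 in WT, so promoter accessibility does not check the knockout label. The 7 peaks of chromosome Y together held 0 to 2 counts in each Supt7l KO library against 114 to 370 in the others, and whether this bears on the autosomal members was not tested. ES cell markers had a promoter peak at 8 of 8 genes. Their summed level is in CPM per kb (counts scaled to library size, per kb of peak). It was 224 to 262 in WT, 222 to 260 in AID-Zzz3, 227 to 257 in AID-Yeats2 and 263 to 277 in Supt7l KO. The Supt7l KO sums lay above all others, but only just, at 262.6 against 261.7 in the closest WT library. By gene, the Supt7l KO mean was highest at Pou5f1, Esrrb, Klf4 and Dppa5a but not at Nanog, Sox2, Zfp42 and Tdgf1. For fibroblast feeder markers peaks were found at 3 of 5 genes, with none at Thy1 and Prrx1, and the sum was 46.4 to 56.2 in WT, 44.9 to 66.8 in AID-Zzz3, 43.2 to 57.4 in AID-Yeats2 and 38.5 to 49.5 in Supt7l KO. Primitive endoderm markers had a peak at 4 of 5 genes and sums of 176 to 209, 182 to 214, 188 to 221 and 189 to 227 in the same order. Primed or formative markers had a peak at 2 of 4 genes, with none at Pou3f1 and Otx2. Their sums were 44.7 to 55.4, 40.2 to 54.4, 45.2 to 60.3 and 41.3 to 58.5 in that order. Across genotypes, deviations from the group means correlated at 0.0231 to 0.103 between libraries of the same set (replicates 1 and 2, or 3 and 4) with different numbers, and at -0.109 to -0.0167 between sets. Results within these sets are given where they bear on a call.

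The 56 genes covered both subunits. By the known homology of their proteins, 22 encode large-subunit proteins with bacterial counterparts, 15 large-subunit proteins particular to mitochondria, 12 small-subunit proteins with bacterial counterparts and 6 mitochondria-specific small-subunit proteins. Mrps30 and Mrps18a are counted with the large subunit, where their proteins sit despite the names. Mrps36 stands alone, since its protein is now placed with the 2-oxoglutarate dehydrogenase complex. The 66 peaks lay on 17 chromosomes, and 50 were annotated as promoter, 11 as intron and 5 as exon. Of the 66, 63 lay within 500 bp of the start. The farthest, a second Mrps9 peak, lay at 991 bp, and the nearest family peak outside the limit lay at 1268 bp. There was 1 peak at 47 genes, 2 at 8 genes and 3 at Mrpl33. For genes with several peaks the one with the highest mean is called the main peak, which leaves 10 further peaks.

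The naming step of the annotation left out part of the family. RefSeq lists 78 protein-coding Mrpl and Mrps genes, and 22 had no member peak. For 20 of these 22, the RefSeq start lay inside a peak after all, but that peak carried another gene's name. Mrps11 shares the Mrpl46 peak, and 19 starts lay in peaks credited outside the family, for example Mrps12 under Sars2, Mrpl32 under Psma2, Mrps7 under Gga3 and Mrps26 under 4930473A02Rik. Of those 19 peaks, 17 held RefSeq starts on both strands, which is the layout of a shared, divergent promoter. Among member peaks with a RefSeq start this was 6 of 49 (12.2%), against 1548 of 10297 promoter peaks (15.0%). Both family shares follow in part from the naming, since shared peaks named for the other gene fall outside the members. Counted by gene, 25 of 67 family genes with a start in a promoter peak (37.3%) shared it with a start on the other strand, against 26.6% of all 11515 such genes. Accessibility at such a promoter cannot be assigned to one of its genes. Mrpl43 had its start in no peak. The remaining gene was Mrps34.

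The promoter sequences below, from RefSeq on GRCm38.p6, run from 180 bases before the start to 20 bases after it on the gene's strand. The first 5 belong to peaks whose difference between lines held with any library left out, Mrps11 shares its peak with Mrpl46, and Mrpl57 and Mrps26 hold several motifs close together. Capitals mark exact matches, on either strand, to NRF1 (GCGCANGCG), ETS (CCGGAAG), YY1 (AAGATGGC), Zfp143 (ACTACAA) or the CGCG element (TCTCGCGAG).
Mrps36 (chr13:100744640-100744839, minus strand): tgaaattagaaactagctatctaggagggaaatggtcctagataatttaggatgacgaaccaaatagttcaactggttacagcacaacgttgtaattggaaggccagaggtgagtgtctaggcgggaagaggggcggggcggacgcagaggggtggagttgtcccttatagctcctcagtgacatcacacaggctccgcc
Mrpl9 (chr3:94443156-94443355, plus strand): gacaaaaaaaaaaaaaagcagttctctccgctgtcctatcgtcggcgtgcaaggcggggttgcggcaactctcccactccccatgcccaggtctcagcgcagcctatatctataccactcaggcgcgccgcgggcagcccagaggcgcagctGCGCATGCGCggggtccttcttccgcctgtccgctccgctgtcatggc
Mrps14 (chr1:160195035-160195234, plus strand): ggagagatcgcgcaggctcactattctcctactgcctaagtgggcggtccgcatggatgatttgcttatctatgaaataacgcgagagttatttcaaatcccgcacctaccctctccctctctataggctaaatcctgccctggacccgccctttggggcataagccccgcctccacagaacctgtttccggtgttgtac
Mrps5 (chr2:127587246-127587445, plus strand): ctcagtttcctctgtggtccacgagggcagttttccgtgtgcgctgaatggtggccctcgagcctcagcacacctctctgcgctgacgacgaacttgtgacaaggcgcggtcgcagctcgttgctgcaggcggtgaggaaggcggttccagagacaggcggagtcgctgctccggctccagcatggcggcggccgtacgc
Mrpl12 (chr11:120484457-120484656, plus strand): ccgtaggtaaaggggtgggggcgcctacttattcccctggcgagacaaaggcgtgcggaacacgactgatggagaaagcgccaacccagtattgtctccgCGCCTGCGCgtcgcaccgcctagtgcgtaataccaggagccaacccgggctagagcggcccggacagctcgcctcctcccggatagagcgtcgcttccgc
Mrps11 (chr7:78782951-78783150, plus strand): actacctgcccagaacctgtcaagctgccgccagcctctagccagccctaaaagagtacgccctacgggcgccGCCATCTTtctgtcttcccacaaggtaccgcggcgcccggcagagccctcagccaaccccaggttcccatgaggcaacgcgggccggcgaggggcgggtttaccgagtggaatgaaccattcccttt
Mrpl57 (chr14:57826059-57826258, plus strand): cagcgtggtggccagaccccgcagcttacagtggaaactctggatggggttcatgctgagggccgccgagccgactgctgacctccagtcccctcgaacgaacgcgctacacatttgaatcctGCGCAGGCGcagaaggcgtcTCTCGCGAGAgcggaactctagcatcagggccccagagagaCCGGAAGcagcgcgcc
Mrps26 (chr2:130563577-130563776, plus strand): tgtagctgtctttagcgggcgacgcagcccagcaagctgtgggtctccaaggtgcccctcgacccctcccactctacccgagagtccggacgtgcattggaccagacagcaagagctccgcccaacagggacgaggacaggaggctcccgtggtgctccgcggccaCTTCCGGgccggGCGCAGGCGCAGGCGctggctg
In Mrpl9 a single palindromic stretch matched NRF1 on both strands, Mrpl12 held 1 match on the reverse strand, and Mrps36, Mrps14 and Mrps5 held none of the 5 marked motifs in the stretch shown. The Mrps26 promoter held 2 overlapping NRF1 matches beside an ETS match on the reverse strand, Mrps11 held a YY1 match on the reverse strand, and Mrpl57 held NRF1, CGCG and ETS matches in that order.

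RefSeq windows of 300 bases, from 250 before to 50 after the start, were searched for 10 motifs on both strands, overlaps allowed. Member promoters here were those of the 46 genes, out of the 56, whose start lay in a member peak, which leaves out Mrps11. An ETS match was found in 16 (34.8%), against 17.5% of 11515 promoters that lay in a promoter peak and 9.27% of 27025 promoters in all. NRF1 matched in 11 (23.9%, against 13.8% and 6.58%) and YY1 in 5 (10.9%, against 4.46% and 2.89%). The YY1 promoters were Mrpl35, Mrpl36, Mrpl42, Mrps18a and Mrps24. The SP and KLF core GGGCGG went the other way, with 19 member promoters (41.3%) against 66.9% of open promoters. The NFY box CCAAT was at 41.3% against 39.0%. The E-box CACGTG was found in 1 member promoter (2.17%, against 10.6%), and TGACGTCA (CRE) also in 1 (against 3.39%). Zfp143 matched in 4 (8.70%, against 4.16%), TATAAA in 4 (against 6.21%) and the CGCG element in 1 (against 1.58%). Median GC content was 57.7% in member windows and 61.7% in open promoters, which bears on GC-rich motifs such as GGGCGG. With the family genes credited to other names included, ETS was at 35.8%, NRF1 at 23.9% and YY1 at 17.9% of 67 windows. These matches are descriptions of letters, not of binding.

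**Figure D1:**
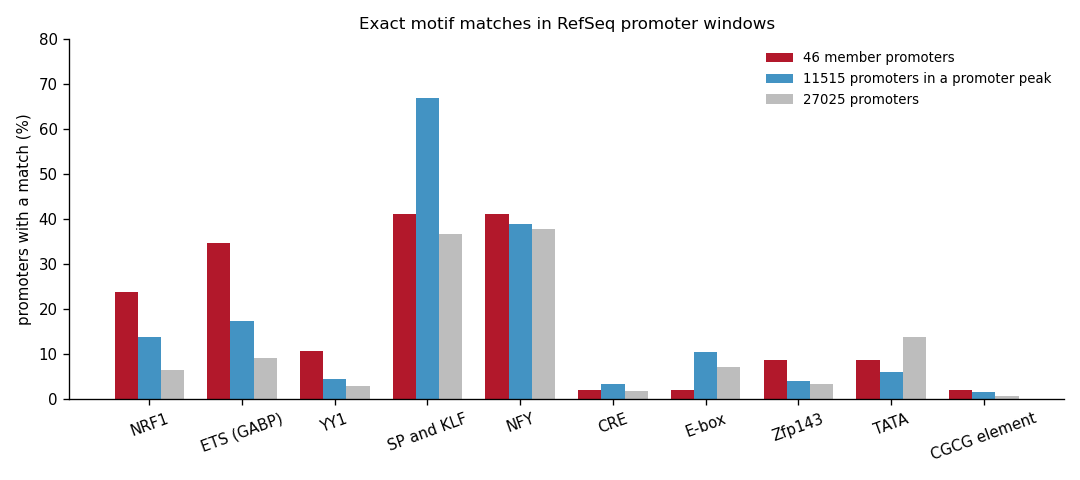
Share of promoter windows (%, y axis) with an exact match to each of 10 motifs (x axis) among 46 member promoters, 11515 promoters in a promoter peak and 27025 promoters in all. ETS, NRF1 and YY1 matches stood at 34.8%, 23.9% and 10.9% in member promoters against 17.5%, 13.8% and 4.46% in open promoters, while GGGCGG stood at 41.3% against 66.9%.

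In WT cells the mitoribosomal promoters were open to a middling degree with a wide range. Levels are CPM, counts scaled by library total and TMM factor, and between peaks they are compared per kb of peak unless stated. The median of the 66 peaks was 24.8 CPM per kb, with a range of 9.61 to 71.0, against a median of 21.1 for all promoter peaks and 14.8 for all peaks. Of the 66, 41 lay above the promoter median. Main peaks had a median of 26.9 and the 10 further peaks one of 13.8 CPM per kb. Member peaks were 875 bp wide in the median and promoter peaks 981 bp.

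Among the roles the medians lay close together. They were 25.6 CPM per kb for large-subunit proteins with bacterial counterparts, 27.2 for mitochondria-specific large-subunit proteins, 27.1 for small-subunit proteins with bacterial counterparts and 29.4 for the mitochondria-specific small-subunit proteins. The highest level belonged to Mrps14, a small-subunit protein with a bacterial counterpart, at 71.0 ± 6.70 CPM per kb (SD, n = 4). Mrps28 followed at 57.2 ± 3.84, the large-subunit gene Mrps30 at 52.1 ± 5.30, Mrps36 at 49.9 ± 8.38 and Mrpl17, a large-subunit protein near the exit tunnel, at 49.8 ± 4.59. The 5 lowest peaks were the further peaks of Mrps9 at 9.61 ± 0.727, Mrps35 at 10.3 ± 3.86 and Mrpl14 at 11.6 ± 2.68, and the main peaks of Mrpl53 at 12.2 ± 1.75 and Mrpl23, which lies at the exit tunnel rim, at 12.4 ± 1.79. The order is a ranking of means only. Of the 55 pairs of neighbours in the order of main peaks, the 4 WT libraries failed to overlap in 1. In CPM, the 10 further peaks lie below their gene's main peak by definition, and the gap varied widely. The 2 further Mrpl33 peaks, at other annotated starts, held 10.6 and 3.78 CPM against 13.5 at the main peak, and the further Mrpl48 and Mrps10 peaks 12.7 and 10.2 against 13.5 and 11.7. Those of Mrpl13, Mrps35 and Mrps9 held 4.64, 5.58 and 7.85 CPM against 36.6, 46.1 and 45.4. The further peaks of Mrpl14, Mrps5 and Mrps6 held 9.77, 4.23 and 6.804 CPM against 17.5, 25.5 and 16.9. These values are not scaled for peak width. Per kb of peak, the further Mrps6 peak lay above its main peak (15.2 against 12.4 CPM per kb). The further Mrpl13 peak lay close to its main peak (24.7 against 28.4), and the other further peaks lay below theirs. Both Mrpl48 peaks, from 100582589 and 100590789 on chromosome 7, lie away from the RefSeq start of Mrpl48 at 100607622.

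**Figure D2:**
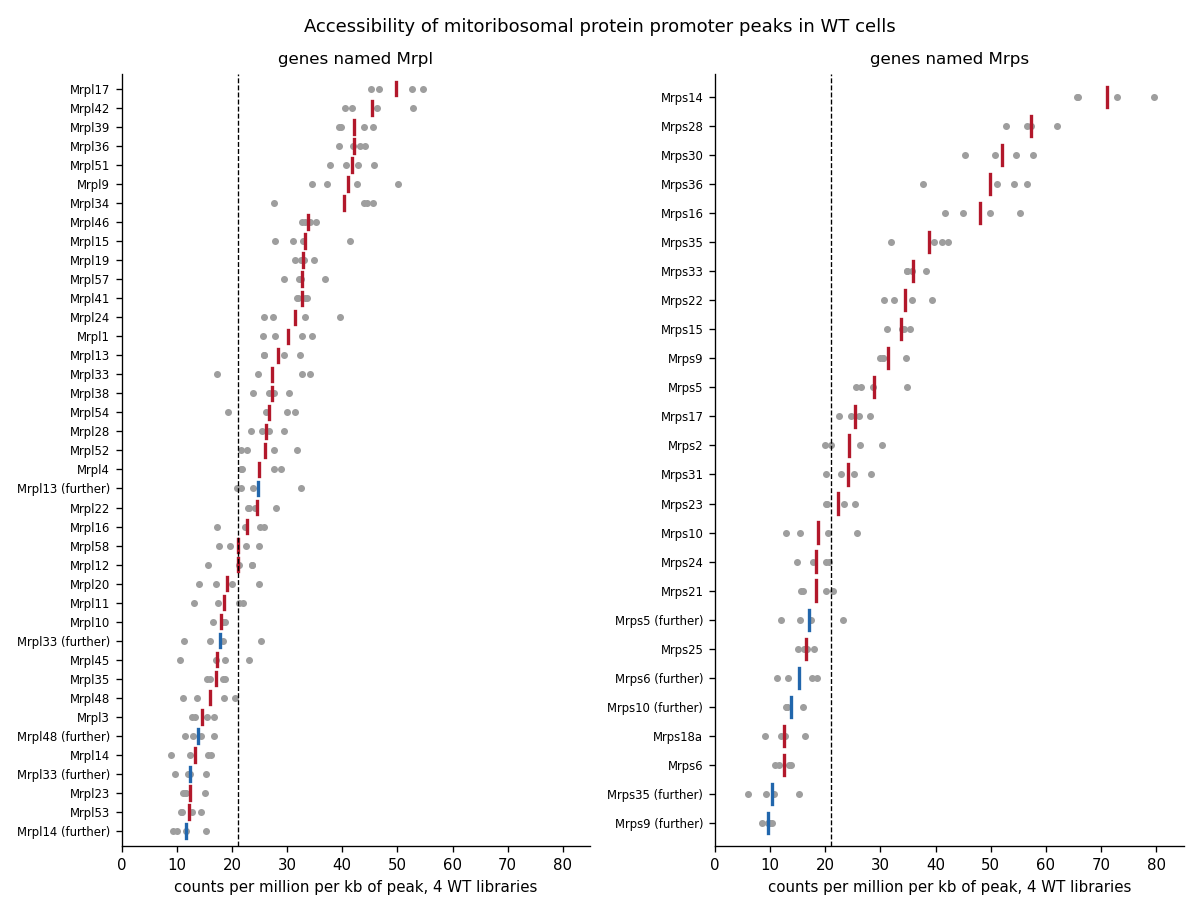
WT accessibility of each member peak in CPM per kb of peak (x axis), 1 grey point per library and a bar at the mean, red for main and blue for further peaks. The left panel holds genes named Mrpl and the right panel genes named Mrps, and the dashed line marks the median of all promoter peaks, 21.1. Mrps14 at 71.0 stood at the top and the further Mrps9 peak at 9.61 at the bottom.

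Set against WT, 0 of the 66 member peaks passed the edgeR test in any of the 3 mutant lines. As a group they lay slightly below WT in both ATAC lines and slightly above it in Supt7l KO, by about as much as promoters in general. Per library, the median difference of the 66 peaks from their WT means was 0.042, 0.028, -0.082 and -0.0092 (log2 CPM) in WT replicates 1 to 4. It was -0.10, 0.0091, -0.22 and -0.21 in AID-Zzz3, and -0.16, -0.12, -0.13 and -0.16 in AID-Yeats2. In Supt7l KO it was 0.11, 0.13, 0.073 and 0.075. All 4 AID-Yeats2 libraries lay below the WT range, all 4 Supt7l KO libraries above it, and AID-Zzz3 replicate 2 within it. In bulk cells, fewer cells with an open promoter and less opening per cell cannot be told apart. The same measure over all promoter peaks had means of -0.093, -0.099 and 0.086 in AID-Zzz3, AID-Yeats2 and Supt7l KO, beside -0.13, -0.14 and 0.097 for members. Member peaks took 0.167% to 0.173% of all counts in WT, 0.153% to 0.168% in AID-Zzz3, 0.157% to 0.160% in AID-Yeats2 and 0.173% to 0.184% in Supt7l KO. The summed ES cell markers also lay above WT in Supt7l KO, if only just, and their part in the member shift was not tested.

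**Figure D3:**
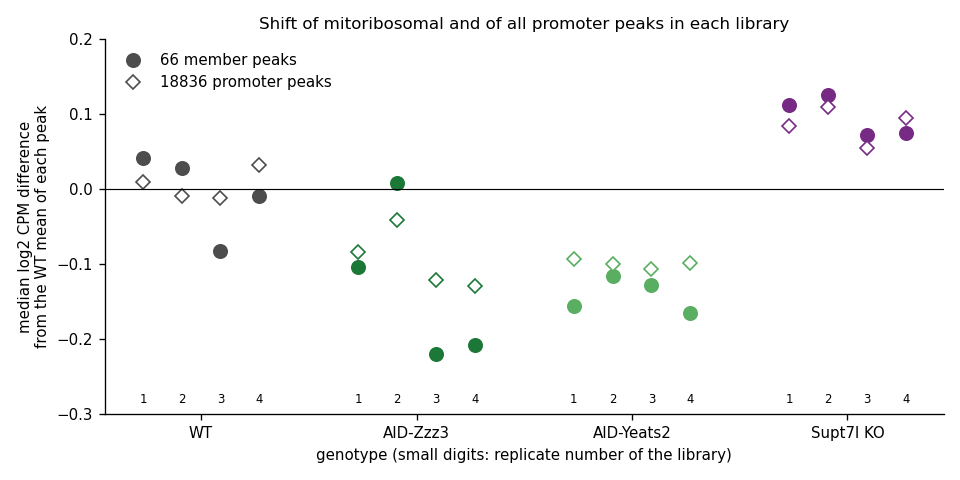
Median log2 CPM difference from the WT mean of each peak (y axis) in each of the 16 libraries by genotype (x axis), for the 66 member peaks (filled circles) and 18836 promoter peaks (open diamonds). Members and promoters lay on the same side of 0 in every mutant library except AID-Zzz3 replicate 2, with AID-Yeats2 members between -0.16 and -0.12 and Supt7l KO members between 0.073 and 0.13.

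The comparison of AID-Zzz3 with WT asks which accessible sites depend on this ATAC subunit. Of the 66 peaks, 0 passed an adjusted p of 0.05 in edgeR's quasi-likelihood test, against 0.98% of all peaks, and 8 had an unadjusted p under 0.05 (12.1%, against 17% of promoter peaks). DESeq2 also called 0. The median log2 change was -0.11, as it was over all promoter peaks, and 51 of 66 values lay below 0 (77.3%, against 67% of promoter peaks). By role the medians were -0.12 and -0.16 for the 2 large-subunit classes and -0.15 and -0.06 for the 2 small-subunit classes. Among peaks above the members' median CPM the lowest changes were those of Mrpl24, whose bacterial counterpart starts assembly of the large subunit (-0.55), Mrps5 (-0.48), Mrpl9 (-0.46), Mrps35 (-0.40) and Mrpl36 (-0.31). Among the same peaks the highest were Mrpl39 (0.20), Mrps25 (0.18), Mrps15 (0.07), Mrps28 (0.06) and Mrps9 (0.05). In 7 peaks all 4 AID-Zzz3 libraries lay below all 4 WT libraries, where 3.51% of all peaks did so, and in 0 they lay above (3.96% of all peaks). The 7 were Mrpl10, Mrpl22, Mrpl24, Mrpl9, Mrps35, Mrps5 and the further Mrps10 peak. Among promoter peaks 6.78% lay below and 2.09% above.

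The member closest to the threshold in AID-Zzz3 was the main peak of Mrpl33 (chromosome 5, 31613834 to 31614329, mm10), whose protein is a small member of the large subunit. It held 8.57, 12.3, 16.9 and 16.3 CPM in WT replicates 1 to 4 and 6.66, 11.6, 3.94 and 6.25 in AID-Zzz3. AID-Yeats2 gave 5.94, 9.65, 8.86 and 12.2 CPM, and Supt7l KO 10.8, 15.3, 4.92 and 11.05. AID-Zzz3 replicate 2 lay between WT replicates 1 and 2, so the groups overlapped. The log2 change was -0.90 ± 0.27 (SE; edgeR adjusted p = 0.0783). Within replicates 1 and 2 it was -0.15 and within replicates 3 and 4 it was -1.68, where the adjusted p was 0.00808. Across all alternatives the adjusted p ran from 0.00808 to 0.94. It passed without AID-Zzz3 replicate 2 (0.0167) and with the set of replicates as a covariate (0.0401).

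AID-Yeats2 asks the same of the other ATAC subunit, against the same 4 WT libraries, so the 2 comparisons share their controls. Again 0 of 66 peaks passed, against 0.822% of all peaks, with 9 at an unadjusted p under 0.05 (13.6%, against 17.4% of promoter peaks) and 0 by DESeq2. The median change was -0.14, beside -0.11 over all promoter peaks, and 54 values lay below 0 (81.8%, against 67.9% of promoter peaks). Among peaks above the members' median CPM, the lowest were Mrpl9 (-0.37), Mrpl36, a very small large-subunit protein (-0.34), Mrps5 (-0.30), Mrps14 (-0.30) and Mrpl57 (-0.30). Among the same peaks the highest were Mrpl15 (0.14), Mrpl1 (0.09), Mrps15 (0.08), Mrpl46 (0.06) and Mrps9 (0.06). Over all 66 peaks the values ran from -0.54, at a further Mrpl33 peak, to 0.23 at Mrpl3. Mrps14 had the smallest adjusted p, 0.197. All AID-Yeats2 libraries lay below all WT libraries in 5 peaks, Mrpl19, Mrpl28, Mrpl36, Mrpl41 and Mrps14, where 3.6% of all peaks and 7.45% of promoter peaks did so. They lay above in 0 (4.09% of all peaks and 1.95% of promoter peaks).

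In Supt7l KO, which asks about SAGA, 0 of 66 passed, against 1.09% of all peaks, with 7 at an unadjusted p under 0.05 (10.6%, against 11.1% of promoter peaks) and 0 by DESeq2. The median was 0.12, beside 0.09 over all promoter peaks, and 17 values lay below 0 (25.8%, against 33.3% of promoter peaks). Among peaks above the members' median CPM, the highest were Mrpl12 (0.44), whose protein forms the stalk that recruits translation factors, Mrps15 (0.38), Mrps25 (0.37), Mrps9 (0.34) and Mrpl39 (0.31). Among the same peaks the lowest were Mrpl24 (-0.05), Mrps30 (-0.05), Mrpl36 (-0.05), Mrps33 (-0.05) and Mrpl1 (-0.005). Over all 66 peaks the values ran from -0.61, at the further Mrps35 peak, to 0.56 at the further Mrps5 peak. Mrps9 had the smallest adjusted p, 0.148. At its main peak (chromosome 1, 42850701 to 42852148) the WT libraries held 50.1, 43.2, 44.1 and 44.2 CPM and the Supt7l KO libraries 61.6, 57.9, 57.5 and 52.7. AID-Zzz3 gave 50.6, 48.9, 40.2 and 48.0 and AID-Yeats2 45.2, 46.4, 45.5 and 51.8, so only the Supt7l KO libraries stood clear of WT. Supt7l KO lay wholly above WT in 4 peaks, Mrpl3, Mrpl39, Mrps15 and Mrps9, as did 3.15% of all peaks and 4.95% of promoter peaks. It lay wholly below in 0 (3.67% of all peaks and 1.52% of promoter peaks).

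The precision of these comparisons was moderate. The 95% interval of a member's log2 change had a median half-width of 0.36 for both ATAC lines and 0.35 for Supt7l KO. The interval lay within a 2-fold change either way for 63, 62 and 64 of the 66 peaks in AID-Zzz3, AID-Yeats2 and Supt7l KO. In the authors' deposited table of DESeq2 comparisons, 0 members passed in AID-Zzz3, AID-Yeats2 and Supt7l KO, where 1.64%, 1.33% and 1.34% of peaks did. The smallest member adjusted p in the authors' deposited table was 0.0714 (Mrpl9), 0.136 (Mrps14) and 0.0507 (Mrps9) in that order. Between AID-Yeats2 and AID-Zzz3, 0 members passed (0% of all peaks), 0 had an unadjusted p under 0.05 and DESeq2 called 0. Their median was -0.02, with 63 intervals within a 2-fold change.

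**Figure D4:**
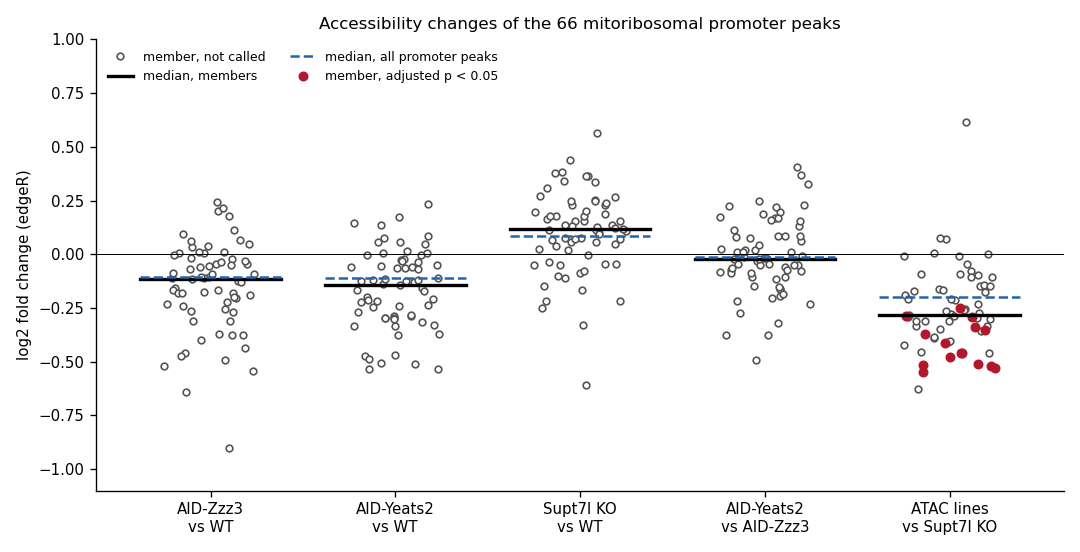
Log2 fold change of each of the 66 member peaks (points, y axis) in the 5 comparisons (x axis), with the median of members (solid line) and of all promoter peaks (dashed line). Filled red points passed an adjusted p of 0.05, which 15 did in ATAC lines against Supt7l KO and 0 in the others.

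The direct contrast set the averaged ATAC lines against the Supt7l KO line. The former are degron lines given auxin for 24 h and the latter is a knockout. Complex, kind of loss and line therefore cannot be told apart in it. Here 15 of the 66 mitoribosomal peaks differed. All 15 were lower in the ATAC lines, at an edgeR adjusted p under 0.05. That is 22.7%, where 17.6% of all peaks were called in either direction, 8.98% of all peaks were called lower and 21.3% of promoter peaks were called lower. The members' share therefore lay near that of promoters in general. The members' median was -0.28 (log2), beside -0.20 for promoter peaks, and 61 of 66 values lay below 0 (92.4%, against 73.8% of promoter peaks). The 15 were all main peaks. Of large-subunit proteins with bacterial counterparts 4 of 22 were lower, Mrpl12, Mrpl17, Mrpl22 and Mrpl9. Of mitochondria-specific large-subunit proteins 5 of 15 were lower, Mrpl41, Mrpl45, Mrpl51, Mrpl52 and Mrpl57. The small subunit gave 4 of 12 with bacterial counterparts (Mrps14, Mrps24, Mrps5 and Mrps9) and 1 of 6 particular to mitochondria (Mrps35), and Mrps36 was also lower. Of the 15, the largest difference was at Mrpl45 (-0.55 ± 0.20 SE, edgeR adjusted p = 0.0481), whose protein anchors the ribosome to the inner membrane, and the smallest at Mrpl17 (-0.25 ± 0.09, edgeR adjusted p = 0.0412). Between them lay Mrps24 (-0.52), Mrpl22 (-0.48), Mrpl52 (-0.46), Mrpl57 (-0.37), Mrpl51 (-0.34), Mrpl41 (-0.29), Mrps9 (-0.29) and the 6 described next. Of the 6 member peaks that hold starts on both strands 4 were among the 15, Mrpl41, Mrpl51, Mrpl57 and Mrps5. These 6 had a smaller median SE than all members, 0.118 against 0.159. The share among all promoter peaks with starts on both strands was not computed.

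Calls came mainly from well covered peaks. The 15 had a median of 36.1 CPM over all libraries and a median SE of 0.12, and the other 51 had 17.5 CPM and an SE of 0.17. The ATAC lines lay wholly below Supt7l KO, library by library, at 6 peaks, Mrpl22, Mrpl9, Mrps35, Mrps36, Mrps5 and Mrps9, as did 3.76% of all peaks and 8.7% of promoter peaks. They lay wholly above it at 0 member peaks (3.62% of all peaks and 1.51% of promoter peaks).

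The calls of Mrps36, Mrpl9, Mrps35, Mrps14, Mrps5 and Mrpl12 held when any 1 of the ATAC-line or Supt7l KO libraries was left out. With loess offsets Mrpl9 and Mrps5 kept it and the other 4 lost it, and within replicates 1 and 2 alone Mrps14 kept it and the other 5 lost it. Mrps36 (chromosome 13, 100743847 to 100744797) had the smallest adjusted p. It held 35.9, 51.6, 48.6 and 53.8 CPM in WT, 44.6, 45.5, 37.7 and 39.0 in AID-Zzz3, 47.2, 39.2, 36.9 and 37.5 in AID-Yeats2 and 48.3, 59.4, 56.6 and 60.2 in Supt7l KO. Every ATAC-line library lay below every Supt7l KO library, while WT spread over both. The difference was -0.46 ± 0.11 (SE; edgeR adjusted p = 0.0016).

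Mrpl9 (chromosome 3, 94443155 to 94443878), a large-subunit protein with a bacterial counterpart, held 36.3, 25.0, 26.98 and 30.8 CPM in WT, 23.6, 24.1, 17.4 and 21.5 in AID-Zzz3, 25.4, 24.2, 22.9 and 19.7 in AID-Yeats2 and 33.6, 30.0, 35.7 and 30.1 in Supt7l KO. All ATAC-line libraries lay below all Supt7l KO libraries, and WT reached from one range to the other. The difference was -0.53 ± 0.13 (edgeR adjusted p = 0.00301). The palindromic NRF1 match printed above lies in this promoter.

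Mrps35 (chromosome 6, 147042258 to 147043446), a mitochondria-specific small-subunit protein, held 37.997, 50.2, 48.9 and 47.3 CPM in WT. AID-Zzz3 gave 37.9, 35.4, 32.1 and 34.3, AID-Yeats2 39.2, 43.9, 35.9 and 44.4, and Supt7l KO 54.5, 44.9, 52.6 and 49.7. The ATAC lines lay wholly below Supt7l KO, AID-Yeats2 only just, and AID-Zzz3 also lay below WT. The difference was -0.41 ± 0.11 (edgeR adjusted p = 0.00445). Its further peak, inside the gene, had a difference of 0.61 (edgeR adjusted p = 0.160).

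Mrps14 (chromosome 1, 160194862 to 160195868), the most accessible member, held 73.4, 66.1, 80.2 and 66.2 CPM in WT, 70.6, 64.8, 56.0 and 54.8 in AID-Zzz3, 46.8, 60.4, 60.1 and 64.4 in AID-Yeats2 and 79.5, 82.1, 66.7 and 76.5 in Supt7l KO. Only AID-Zzz3 replicate 1 reached into the Supt7l KO range. The difference was -0.35 ± 0.10 (edgeR adjusted p = 0.00656). Mrps5 (chromosome 2, 127586858 to 127587741), which shares its peak with the start of Zfp661 on the other strand, held 30.7, 22.7, 23.4 and 25.3 CPM in WT and 26.5, 26.0, 32.3 and 26.8 in Supt7l KO. In AID-Zzz3 it held 18.6, 21.2, 16.04 and 17.5 and in AID-Yeats2 19.0, 19.9, 22.9 and 20.9, all below Supt7l KO. The difference was -0.51 ± 0.14 (edgeR adjusted p = 0.0069).

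Mrpl12 (chromosome 11, 120484027 to 120485220) differed from the others in where WT stood. WT held 28.3, 28.2, 18.7 and 25.3 CPM, AID-Zzz3 23.3, 29.6, 18.3 and 17.8 and AID-Yeats2 25.4, 29.8, 18.5 and 27.7, so those 3 lines overlapped throughout. Supt7l KO held 38.8, 34.6, 35.99 and 26.5 CPM, with replicate 4 back among the rest. The difference was -0.52 ± 0.14 (edgeR adjusted p = 0.00695). At the other end Mrps30 gave 70.8 ± 7.21, 69.0 ± 4.87, 68.4 ± 5.35 and 68.2 ± 4.08 CPM (SD, n = 4) in WT, AID-Zzz3 and AID-Yeats2 and in Supt7l KO, with a difference of 0.007 (edgeR adjusted p = 0.971).

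**Figure D5:**
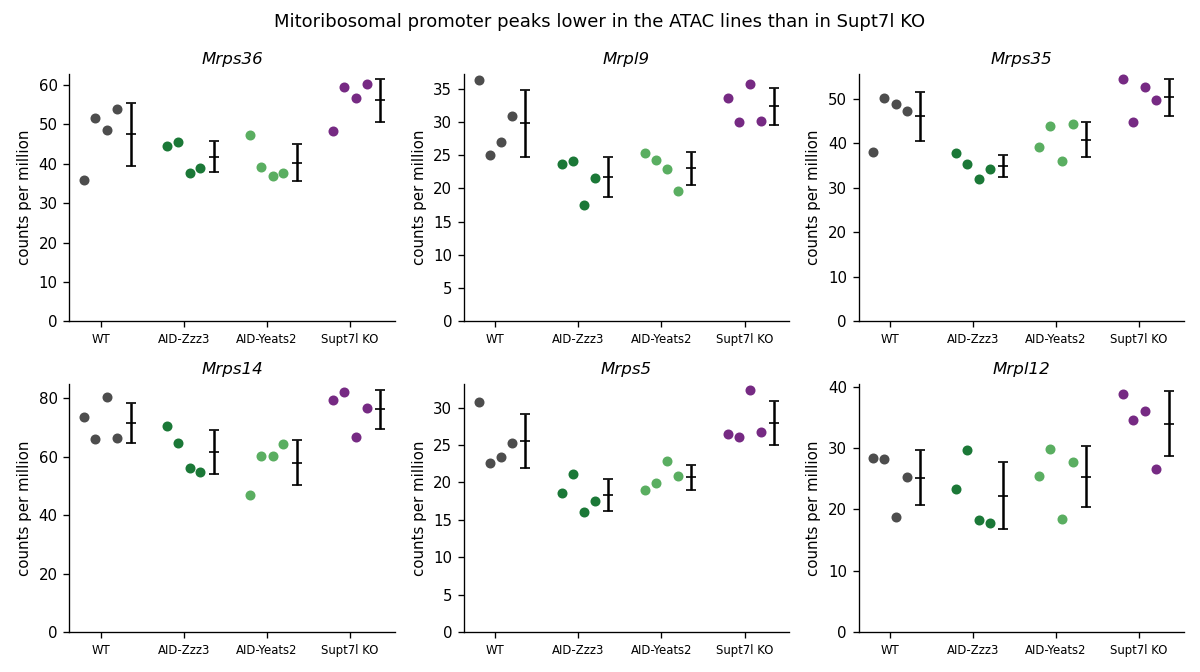
CPM (y axis, from 0) in each library by genotype (x axis) at 6 member peaks, with mean and SD of 4 libraries as bars at the right of each group. In all 6 the Supt7l KO libraries centred above both ATAC lines, and at Mrps36, Mrpl9, Mrps35 and Mrps5 they did not overlap them.

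How many members were called depended on how libraries were scaled and on which were used. With library totals in place of TMM factors 6 members (9.09%) and 13.6% of promoter peaks were lower, and with offsets smoothed over the peak's level (loess) 4 members (6.06%) and 7.97% of promoter peaks. The 4 were Mrps24, Mrpl45, Mrps5 and Mrpl9. Within replicates 1 and 2 alone 2 members (3.03%) were called, Mrps14 and Mrpl52, both lower, where 8.9% of promoter peaks were lower. Within replicates 3 and 4 alone 9 were called, of which 8 (12.1%) were lower, where 9.11% of promoter peaks were lower. The other 1, the further Mrps35 peak, was higher. The count of 15 became 9 (13.6%) without AID-Yeats2 replicate 2, AID-Zzz3 replicate 3 or Supt7l KO replicate 3. In the same order 18.7%, 18.2% and 19.8% of promoter peaks were then lower. Without Supt7l KO replicate 2 the count was 7 (10.6%), where 13.2% of promoter peaks were lower.

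The shared promoters that the naming step left out were measured in the same fit and were looked at after the member results were seen. Among the 19 peaks credited outside the family 9 were lower in the ATAC lines than in Supt7l KO (47.4%, against 21.3% of promoter peaks and 8.98% of all peaks), at Mrpl18, Mrpl2, Mrpl40, Mrpl47, Mrps18b, Mrps18c, Mrps26, Mrps27 and Mrps7. The median log2 difference of the 19 was -0.287, beside -0.285 for the 66 members. Their median SE was smaller, 0.125 against 0.159. Against WT, 1 of the 19 was lower in AID-Zzz3, where 0.802% of promoter peaks and 0.346% of all peaks were, and 2 in AID-Yeats2, where 0.749% and 0.298% were. They were Mrps26 in both lines and Mrps18b in AID-Yeats2. The peak with the Mrps26 start (chromosome 2, 130563148 to 130564440) held 43.2, 44.2, 42.99 and 47.8 CPM in WT and 35.6, 48.7, 41.8 and 46.1 in Supt7l KO. AID-Zzz3 gave 34.6, 33.7, 24.5 and 28.8 and AID-Yeats2 26.9, 24.8, 30.3 and 35.5. Every library of both ATAC lines lay below every WT library. The fall was 0.55 ± 0.14 in AID-Zzz3 (edgeR adjusted p = 0.0258) and 0.60 ± 0.14 in AID-Yeats2 (edgeR adjusted p = 0.0154), and the call was lost without AID-Zzz3 replicate 3 or 4 or WT replicate 1 or 4 in the former and without AID-Yeats2 replicate 2 or WT replicate 4 in the latter. Both calls were also lost with loess offsets and within replicates 1 and 2 alone, and that of AID-Yeats2 within replicates 3 and 4 alone as well. The Mrps18b peak held 57.7 ± 2.261 CPM in WT and 42.3 ± 3.80 in AID-Yeats2 (fall of 0.45 ± 0.12, edgeR adjusted p = 0.0419), a call that held without AID-Yeats2 replicate 1 and was lost without any other of the 8 libraries, with library totals, with loess offsets and within either set of replicates alone. The Mrps26 promoter is the one printed above with 2 NRF1 matches and an ETS match.

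Other genes of mitochondrial translation were read from lists chosen with earlier results of these data known. DAP3, a small-subunit GTP-binding protein whose gene carries no Mrps name, was lower in AID-Zzz3, with 32.9 ± 9.10 CPM against 49.5 ± 5.18 in WT (-0.58 ± 0.14, edgeR adjusted p = 0.023). This was the 1 call against WT among 4 measured of 7 listed subunits of other names, and it was lost without AID-Zzz3 replicate 1, 3 or 4 or WT replicate 3 or 4, with loess offsets and within replicates 1 and 2 alone. Between the ATAC lines and Supt7l KO the counts below stand against 21.3% of promoter peaks and 8.98% of all peaks called lower. No list was tested against that background. The median SE of these lists ran from 0.122 (regulators) to 0.148 (translation factors), against 0.159 for promoter peaks, and a smaller SE makes a call easier. Each list count is over the genes measured, fewer than were listed. Of 18 assembly factors 6 were lower (33.3%), among them the helicase gene Dhx30 (-0.56), the GTPase gene Mtg1 (-0.59) and Malsu1 (-0.54), and of 18 genes of mitochondrial aminoacyl-tRNA synthesis 7 (38.9%), among them the synthetase genes Iars2 (-0.62) and Ears2 (-0.49) and the amidotransferase gene Gatb (-0.50). Of 13 translation factors the release factor genes Mtrf1l (-0.42) and Mtrf1 (-0.50) were lower (15.4%) and Lrpprc, an RNA-stability factor, was higher (0.51). Mtrf1 and Lrpprc lie on distal chromosome 14 (from 60 Mb) and distal chromosome 17 (from 70 Mb), where the median of all peaks in this contrast was -0.49 and 0.90 and where 0 members lie. Of 8 regulators 5 were lower (62.5%), among them Nrf1 (-0.60), Gabpb1 (-0.47) and Pprc1 (-0.39), and of 6 genes of mitochondrial DNA transcription and replication 3 were (50%), Tfam (-0.37), Polrmt (-0.66) and Ssbp1 (-0.33). For comparison, 55 of 79 promoter peaks of cytoplasmic ribosomal proteins were lower (69.6%), with a median of -0.45 against -0.28 for the mitoribosomal peaks. The difference between these families was not tested.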

How the data were processed

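ATAC-seq counts per peak were taken from the deposited table of 70150 peaks (mm10). Per the submitters' processing notes, the tools were bedtools 2.26.0, DESeq2 1.16.1, HOMER, MACS2 2.1.1.20160309, bcl2fastq 2.17.1.14 and Bowtie2 2.2.6, with Ensembl 94 annotation. The deposited raw counts are whole numbers and were used as they stand. The log2 fold changes and adjusted p-values in the authors' deposited table were read for comparison only, and 20 further per-sample columns were not used.

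All 16 libraries entered one fit in edgeR 4.0.16 (R 4.3.3, limma 3.58.1) with TMM scaling, filterByExpr (458 peaks removed), the quasi-likelihood test, 5 contrasts and Benjamini-Hochberg adjustment over all tested peaks, at a threshold of 0.05. Log2 CPM used a prior count of 2. The standard error was the log2 change divided by the square root of F. Intervals are at 95% and cover the spread between libraries. DESeq2 1.42.0 was an alternative. Tables were made in Python 3.11.15 with numpy 2.4.6, pandas 2.3.3 and scipy 1.17.1. Tested on simulated data for AID-Zzz3 against WT (69506 peaks), 13 of 102 peaks changed 1.5-fold and 49 of 98 changed 2-fold were recovered, with 3 false calls.

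The members, lists and tests were chosen with earlier results of these data known. Named were all called members, the 5 highest and 5 lowest log2 changes against WT among members above the median CPM, the 5 highest and 5 lowest levels, genes with several peaks and, per other list, at most 3 called peaks. Genes named beyond this rule, Mrps30 and those in shared peaks among them, were chosen after their values were seen. Replicate numbers were not treated as pairs. Promoter windows came from RefSeq (GRCm38.p6).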

Additional observations from a re-analysis of the deposited data

Results flagged for a closer look

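At 12 of 180 groups of 4 libraries (6.67%), 1 library stood apart from the other 3 in CPM, and chance alone gives about 1 in 20 groups. At main peaks, the library apart was AID-Zzz3 replicate 4 at Mrpl14 (11 CPM) and at Mrpl52 (15.25 CPM). At Mrpl23 it was WT replicate 4 (18.64 CPM) and AID-Yeats2 replicate 3 (15.76 CPM), and at Mrpl53 AID-Yeats2 replicate 1 (20.6 CPM). Supt7l KO replicate 3 stood apart at Mrps5 (32.3 CPM) and WT replicate 1 at Mrps9 (50.1 CPM). Among further peaks, it was AID-Zzz3 replicate 1 at Mrpl14 (13.65 CPM), Supt7l KO replicate 4 at Mrpl33 (5.247 CPM) and Supt7l KO replicate 3 at Mrpl48 (7.382 CPM). At the further Mrps10 peak it was both WT replicate 3 (11.87 CPM) and AID-Zzz3 replicate 1 (6.658 CPM).

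Between the ATAC lines and Supt7l KO, 21.3% of promoter peaks were lower in the ATAC lines by the test of the difference itself (edgeR). Of the 66 members 15 were (22.7%). As log2 differences these were -0.55 at Mrpl45, -0.531 at Mrpl9, -0.519 at Mrps24, -0.516 at Mrpl12, -0.509 at Mrps5, -0.479 at Mrpl22, -0.459 at Mrpl52 and -0.459 at Mrps36. The remaining 7 were -0.413 at Mrps35, -0.373 at Mrpl57, -0.353 at Mrps14, -0.337 at Mrpl51, -0.292 at Mrpl41, -0.288 at Mrps9 and -0.248 at Mrpl17.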

How the results depend on the processing

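Of 75 results, the direction and side of the threshold were kept by 75 with RLE size factors, 74 with DESeq2, 74 without the filter on low counts, 73 with only the groups compared, 59 with library totals and 44 with loess offsets. Between the ATAC lines and Supt7l KO, the count of 15 called members became 6 with library totals, 4 with loess offsets, 2 within replicates 1 and 2, 9 within replicates 3 and 4, 7 to 16 when 1 library was left out, and 24 with the family genes credited to another name added. The cause was not tested. Mrpl17 changed sign with loess offsets, to 0.0132 (adjusted p = 0.943, edgeR). In AID-Zzz3 against WT the count of 0 became 1 with the set of replicates as a block, within replicates 3 and 4, and with the added family genes, and 0 to 1 with 1 library left out. In AID-Yeats2 it became 2 with the added family genes.

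Same-numbered libraries correlated at 0.0163 to 0.111 (24 pairs), much as other libraries of the same set did (0.0231 to 0.103). Replicate numbers therefore showed no pairing beyond the set. Between sets the correlations were -0.109 to -0.0167, and the main fit holds no term for the set. With the replicate number as a block, 1 member was called in AID-Zzz3, the main peak of Mrpl33. Between the ATAC lines and Supt7l KO 16 members (24.2%) were then called, all lower, where 24.3% of promoter peaks were lower. With 4 libraries a genotype, 13 of 102 simulated 1.5-fold changes were recovered in AID-Zzz3 against WT. The changed peaks were drawn from all tested peaks, whose median SE in the real comparison was 0.247, against 0.182 for members. The adjusted p also depends on how many peaks change, so this share cannot be carried over to members. Smaller changes were not simulated.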
